A study of Drosophila melanogaster with 3 samples.

Results

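EcR, usp and tai encode the ecdysone receptor, its dimerization partner Ultraspiracle and the receptor coactivator Taiman. They are 3 of 18164 annotated genes on the 6 chromosome arms. Every listed region was taken whose summit, the position of highest signal, lay inside the gene body of the Ensembl BDGP6 annotation or within 5 kb of it. By this rule the genes hold 11 of the 4410 peaks in the authors' thresholded list, called here the optimal peaks. The data are ChIP-seq peak lists for CG8319, a zinc finger protein, in whole Drosophila melanogaster. All samples form 1 group: prepupae of unknown age, males and females pooled, from 1 transgenic line that stably carries CG8319 with GFP at its C terminus. The fusion protein was recovered with an anti-GFP antibody from chromatin sonicated to 200 to 800 bp, in 3 biological replicates. No untagged group was analysed here, and the promoter that drives the fusion is not given in the sources used here.

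EcR is a nuclear receptor that binds the steroid hormone ecdysone in its active hydroxylated form. It binds DNA as a dimer with Usp, the fly counterpart of the vertebrate retinoid X receptors, and the dimer recruits corepressors without hormone and coactivators such as Tai with it. Pulses of the hormone drive the passage from larva to prepupa and pupa. Alternative promoters and splicing of EcR give isoforms with different first domains, named A, B1 and B2, and the tissues of the metamorphosing fly differ in which isoform they hold. Tai belongs to the steroid receptor coactivator family and also partners the juvenile hormone receptors and the Hippo pathway coactivator Yorkie.

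Each of the genes had an optimal peak within 500 bp of a start site, whereas 14.0% of the 13945 protein-coding genes did. For EcR this rested on 1 of 4 start sites, on a peak among the strongest regions of 1 replicate only, and it was lost within 200 bp or with the stronger 2205 optimal peaks. By start site the count was 4 of 8, beside 12.7% of the 19607 start sites of protein-coding genes. All 3 genes had an optimal summit in the body or within 5 kb, as did 40.8% of protein-coding genes. The count was 4 peaks at EcR, 1 at usp and 6 at tai, and 7 of the 11 summits lay more than 500 bp from every start site of the gene. EcR and tai are long genes, so the counts are also given by length. They were 0.44 peaks per 10 kb at EcR, 0.74 at usp and 0.64 at tai, beside 0.33 over the 6 arms. Over the arm of each gene the value was 0.29 for EcR, 0.35 for usp and 0.34 for tai. The usp value, the highest of the 3 genes, is 1 peak in a window of 13514 bp. As many peaks as at EcR or more were found at 2.93% of protein-coding genes, and as many as at tai or more at 0.810%, whatever the length of the gene.

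**Figure D1:**
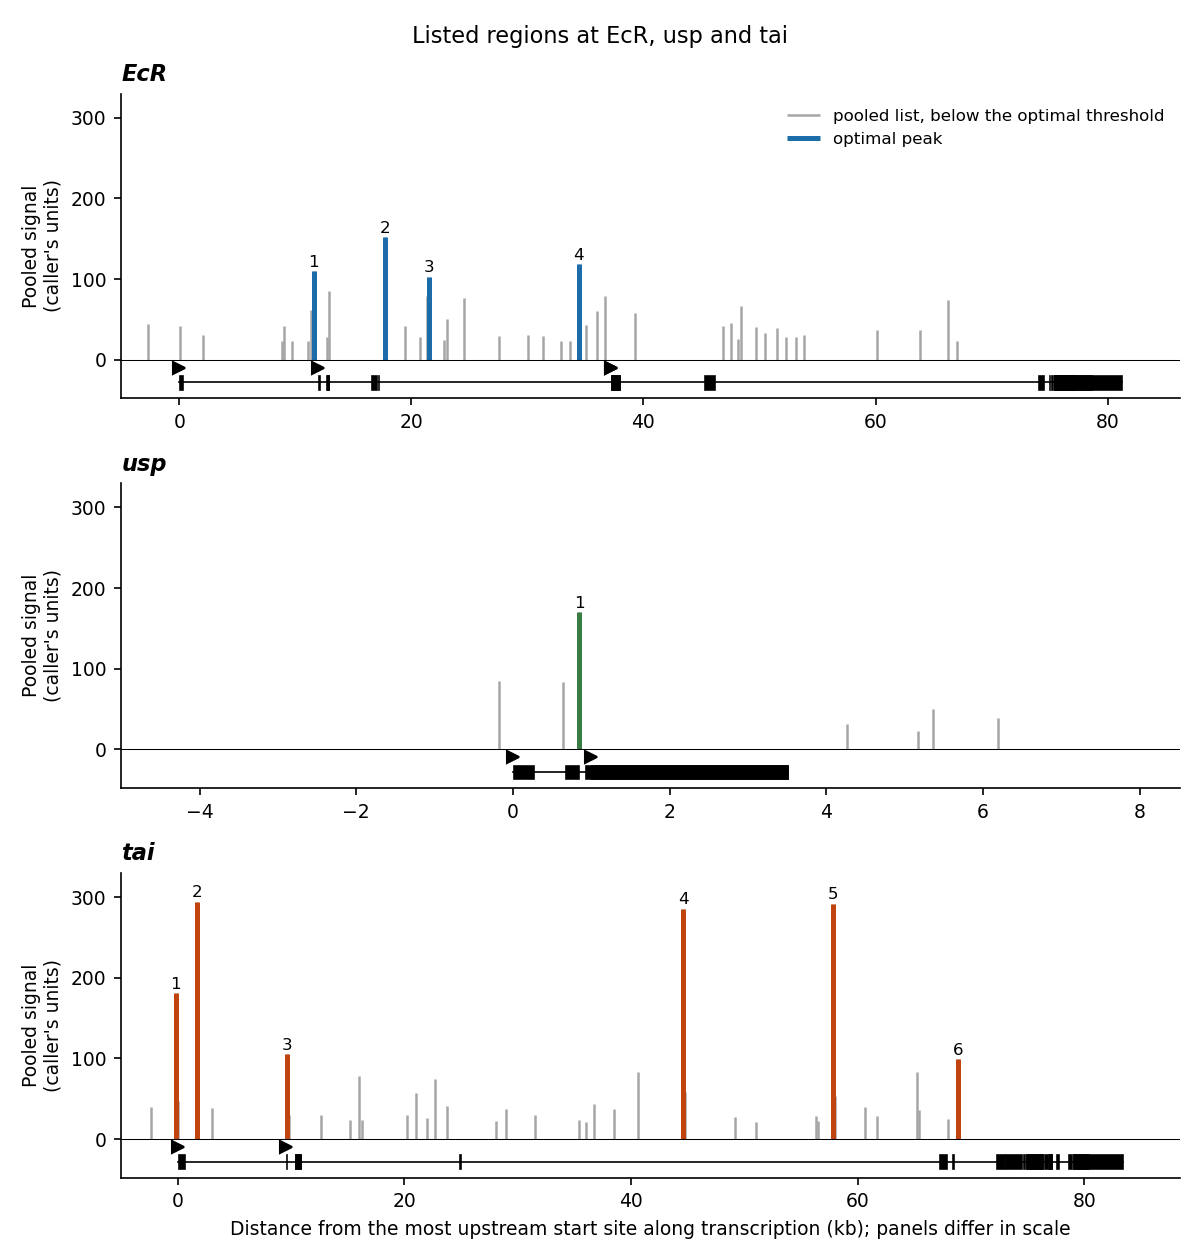
Listed regions along EcR, usp and tai, with the pooled signal in the caller's units on the vertical axis and the distance from the most upstream start site along transcription, in kb, on the horizontal axis. Coloured bars are the 11 optimal peaks, grey bars are pooled regions below the threshold, boxes are exons of any transcript and triangles are start sites. The peaks of tai spread over 69.1 kb, those of EcR over 22.9 kb, and usp has 1.

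The signal of a region is a value that the authors' peak caller gave and they deposited. Its scale differs between lists, with a median of 10.5, 18.9 and 11.1 over the 30000 regions of replicates 1, 2 and 3. A level was therefore computed in each replicate as the log2 ratio of a peak's signal to the median signal of that replicate's regions on optimal peaks. A level of 0 is that median. Read depth is unknown, because the lists hold no read counts. In whole animals, weak binding in many cells and strong binding in few cannot be told apart. All positions are dm6, counted from 1, and p-values measure only the spread between the 3 replicates.

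EcR (FBgn0000546) lies on the minus strand of chromosome arm 2R, from 6087873 to 6169087, with 6 annotated transcripts and 4 start sites. Transcript EcR-RA begins farthest upstream, at 6169087, and EcR-RD and EcR-RE begin at 6157129. These transcripts code for the same length of 849 residues, that of the A isoform. EcR-RB and EcR-RC begin at 6131922 and EcR-RG at 6131841, and they code for the B isoforms, of 878 residues from EcR-RB and EcR-RG and 669 from EcR-RC.

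EcR peak 1 (6157303 to 6157712) was the only optimal peak within 500 bp of a start site of EcR. Its summit lay 379 bp upstream of the start of EcR-RD and EcR-RE, in intron 1 of EcR-RA. Its signal was 16.7 in replicate 1, 37.1 in replicate 2 and 55.4 in replicate 3, which ranked it 7542, 5520 and 1400 among the regions of those lists. Replicate 3 stood above the other 2, and it alone placed the peak among its 4410 strongest regions, the length of the optimal list. The level was -0.91, -0.73 and 0.56, with a mean of -0.36 ± 0.80 (SD, n = 3). That SD was larger than at 96.2% of the optimal peaks, whose median SD was 0.28. The deposited −log10 q-value was 2.16, 2.13 and 3.75 in the 3 replicates, at its ceiling in replicate 3 only. Replicate 1 also listed a stronger region, of signal 18.1 at rank 6707, with its summit 194 bp downstream of the same start. That region gives the replicate 1 level of -0.80 at this start site.

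The other start sites of EcR had no optimal peak within 500 bp. At the EcR-RA start the strongest region had a signal of 7.45 in replicate 1 and 34.5 in replicate 2, and replicate 3 listed none. The pooled list, called by the authors from the replicates together, placed that site at 42.2, rank 10768. The start of EcR-RB and EcR-RC, the promoter of the B isoforms, had a region of signal 37.2 in replicate 1, rank 2181, and of 23.5 in replicate 2, rank 10605, and none within 500 bp in replicate 3. A pooled region with its summit 506 bp upstream of that start reached a signal of 79.1 at rank 4973, below the lowest optimal signal of 87.3. Replicate 3 listed a region that overlaps this pooled region, with its summit at 6132447, of signal 23.3 at rank 4830. The lack of a replicate 3 region at the B promoter thus rests on the 500 bp limit. Among its strongest regions, replicate 1 held one at the B promoter and replicate 3 one at the downstream A promoter.

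**Figure D2:**
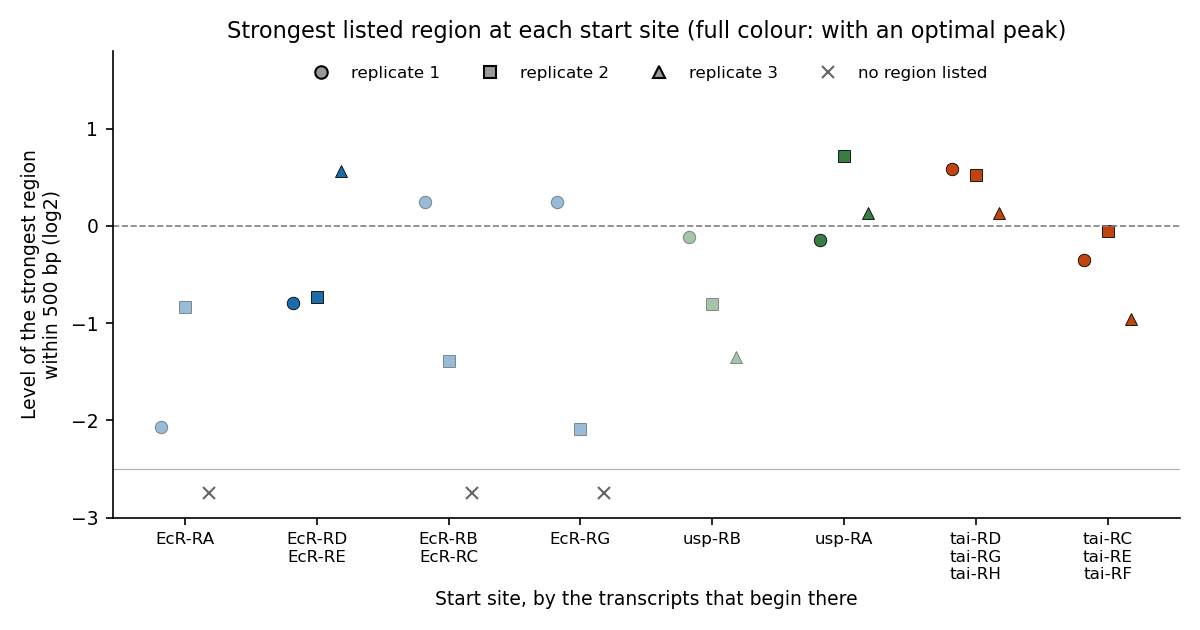
Level of the strongest listed region within 500 bp of each of the 8 start sites, in log2 units relative to the replicate's median on optimal peaks, by replicate. Full colour marks the 4 start sites with an optimal peak, and a cross below the line marks a replicate with no listed region within 500 bp. At tai-RD, tai-RG and tai-RH the 3 replicates lie between 0.13 and 0.58, at EcR-RD and EcR-RE between -0.80 and 0.56.

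The remaining 3 peaks of EcR lay in the 56758 bp intron that separates the A-specific exons from the shared exons, which is intron 3 of EcR-RA and intron 4 of EcR-RD and EcR-RE. EcR peak 2 (6151133 to 6151542) had the highest pooled signal of the gene, 152 at rank 2041, and signals of 34.4, 69.0 and 43.9 in the replicates. The replicates lay close together in level, at 0.13, 0.17 and 0.23, with a mean of 0.17 ± 0.05 (SD, n = 3). A smaller SD was found at 2.22% of optimal peaks. EcR peak 3 (6147369 to 6147778, pooled signal 103) had signals of 34.2, 42.8 and 26.5. Its level was higher in replicate 1, at 0.12, than in replicates 2 and 3, at -0.52 and -0.51.

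EcR peak 4 (6134438 to 6134847, pooled signal 119) lay nearest to the B promoter, 2721 bp upstream of the start of EcR-RB and EcR-RC and 2660 bp from CG14589, a gene inside the intron. Its signals were 31.2, 62.5 and 33.5, its levels -0.01, 0.02 and -0.17, and the mean was -0.05 ± 0.10 (SD, n = 3). Peaks 2 and 4 were among the 4410 strongest regions of all 3 replicates, peak 3 among those of 2. The summits of the 4 peaks lay 11579 to 34444 bp from the first start site, and the last 46.8 kb of the gene, with the B promoter and the exons shared by all transcripts, held none. The window of EcR also holds 16 tRNA genes. None of them had an optimal summit within 500 bp, and the nearest, tRNA:Asn-GTT-1-1, was 1338 bp from the summit of peak 2.

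The gene of the partner receptor, usp (FBgn0003964), is short, from 2038798 to 2042311 on the minus strand of the X chromosome. Its transcripts usp-RB and usp-RA begin at 2042311 and 2041312 and code for the same length of 508 residues. Its only optimal peak (2041261 to 2041670, pooled signal 169.8, rank 1724) had the summit 154 bp upstream of the usp-RA start. The summit lay in untranslated sequence of exon 2 of usp-RB and in intron 1 of Actn, which encodes the actin cross-linker alpha-actinin and overlaps usp. The signal was 28.4, 101.4 and 41.2, and the level -0.14, 0.72 and 0.13, with a mean of 0.24 ± 0.44 (SD, n = 3). Replicate 2 stood above the other 2, and all 3 had the peak among their 4410 strongest regions.

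The upstream start of usp is shared with Actn, and CG4313 also begins within 500 bp of it. The strongest region there had signals of 29.1, 35.1 and 14.8, a mean level of -0.75 ± 0.62 (SD, n = 3), and a pooled signal of 84.4 at rank 4592, just under the threshold. Replicate 1 gave nearly the same signal at both usp starts, 29.1 upstream and 28.4 downstream. Replicates 2 and 3 gave a higher signal at the usp-RA start, 101.4 against 35.1 and 41.2 against 14.8. Because the genes share these regions, a region cannot be assigned to usp alone.

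The coactivator gene tai (FBgn0041092) lies on the plus strand of chromosome arm 2L, from 9166778 to 9250211. Transcripts tai-RD, tai-RG and tai-RH begin at the first base of the gene, and tai-RC, tai-RE and tai-RF at 9176358. The coding lengths range from 1918 to 2047 residues, and both start sites give products of 1918 and of 2026 residues. Both had an optimal peak. The first, tai peak 1 (9166404 to 9166813, pooled signal 181) had its summit 169 bp upstream of the first start and 95 bp from the start of the neighbouring gene CG9586, in intergenic sequence. Its signals were 46.9, 88.2 and 41.0, and its levels 0.58, 0.52 and 0.13, lowest in replicate 3, with a mean of 0.41 ± 0.25 (SD, n = 3).

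The peak at the internal start, tai peak 3 (9176170 to 9176579, pooled signal 105, rank 3450) had its summit 17 bp downstream of the internal start, in the first exon. Its signals were 24.5, 59.1 and 19.4, and its levels -0.36, -0.06 and -0.95, with a mean of -0.46 ± 0.46 (SD, n = 3). All 3 replicates lay below the levels of tai peak 1, so the ranges of the promoter peaks did not overlap.

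The strongest peaks of the 3 genes were not at promoters but inside introns of tai. Peak 2 (9168392 to 9168594) lay 1685 bp into the gene in intron 1, with signals of 70.4, 151 and 72.1 and a mean level of 1.13 ± 0.18 (SD, n = 3). Peak 4 (9211162 to 9211571) and peak 5 (9224488 to 9224686) lay 35009 and 48228 bp downstream of the internal start, in the same intron of 42174 bp (9191814 to 9233987). This is intron 2 of tai-RD and intron 3 of tai-RC. Peak 4 had signals of 67.7, 143 and 72.2 and a mean level of 1.09 ± 0.14 (SD, n = 3). Peak 5 had signals of 62.8, 157 and 73.7 and a mean level of 1.11 ± 0.21 (SD, n = 3). The pooled signals of the 3 were 295, 286 and 292, at ranks 628, 661 and 637 of 4410, and their ranges over replicates overlapped throughout. The last, tai peak 6 (9235473 to 9235882, pooled signal 99.4) lay in an intron farther downstream (9235264 to 9238957), 916 bp from tRNA:Thr-AGT-1-1. Its signals were 35.8, 30.7 and 31.3, and its level was highest in replicate 1, at 0.19, and lowest in replicate 2, with a mean of -0.36 ± 0.60 (SD, n = 3).

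**Figure D3:**
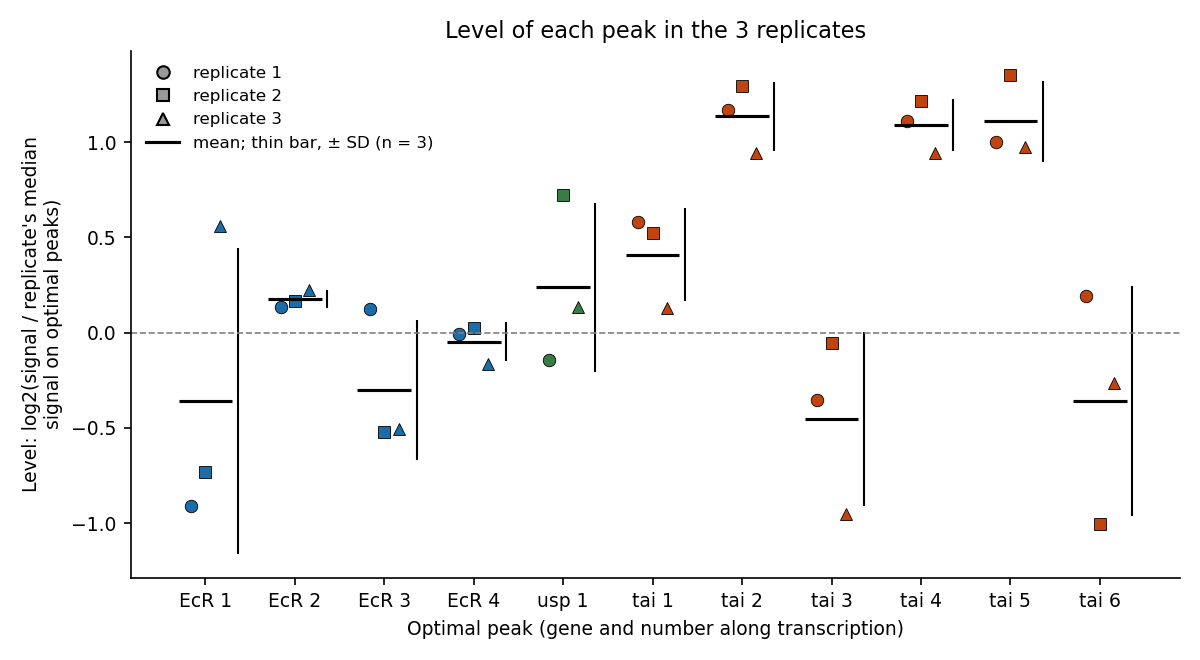
Level of each of the 11 optimal peaks in the 3 replicates, in log2 units relative to the replicate's median on optimal peaks (dashed line at 0). Symbols are replicates, horizontal bars means and thin vertical bars ± SD (n = 3). Peaks 2, 4 and 5 of tai lie between 0.94 and 1.35 in every replicate, above all values of the other 8 peaks.

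The sequences at the summits of these strong intronic peaks, with those at the first start of tai and at the promoter peak of usp, are shown to compare their base composition and the few motif matches they hold. They are dm6 plus strand, read 5′ to 3′ from the RefSeq genome, 50 bp to either side of the summit. The usp sequence is cut to the part of that window in the adjoining intron and leaves out the summit. Capitals mark matches on either strand to the TATA-box word TATAAA, to runs of at least AAAAAA, to the word CAGGTA known from early zygotic genes, and to GAGAG, which appears as its complement CTCTC.
usp peak 1, chrX:2041416-2041460: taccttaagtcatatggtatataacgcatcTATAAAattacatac
tai peak 1, chr2L:9166559-9166659: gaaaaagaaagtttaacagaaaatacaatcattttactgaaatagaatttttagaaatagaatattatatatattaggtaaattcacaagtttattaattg
tai peak 2, chr2L:9168413-9168513: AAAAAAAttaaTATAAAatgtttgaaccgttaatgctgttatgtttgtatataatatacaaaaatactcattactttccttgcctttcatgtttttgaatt
tai peak 4, chr2L:9211317-9211417: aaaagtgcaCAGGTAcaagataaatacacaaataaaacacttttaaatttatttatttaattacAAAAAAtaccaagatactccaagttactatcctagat
tai peak 5, chr2L:9224536-9224636: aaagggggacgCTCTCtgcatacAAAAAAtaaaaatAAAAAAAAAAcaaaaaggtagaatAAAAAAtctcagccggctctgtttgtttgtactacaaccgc

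In these windows A and T made up 82.2% of the bases at tai peak 1, 78.2% at peak 2 and 76.2% at peaks 4 and 6, which lie above the upper quartile of all optimal peaks, 72.3%. The window of tai peak 1 was richer in A and T than 98.5% of them. At tai peak 5, whose range of levels overlapped those of peaks 2 and 4, the share was 65.3%, below the median of 68.3% over all 4410. The window of tai peak 3 at the internal start had 54.5%, the lowest of the 11. At EcR the values ran from 56.4% at peak 3 to 73.3% at peak 1, and usp had 68.3%. The median of the 11 windows was 72.3%.

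**Figure D4:**
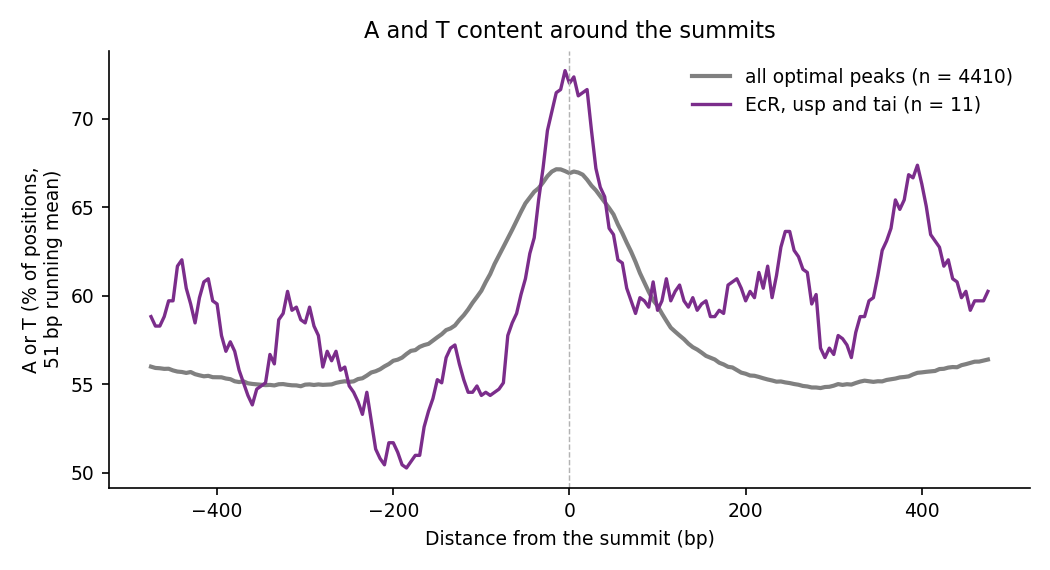
Share of A or T bases, in percent as a running mean over 51 bp, by distance from the summit in bp, for the 11 peaks of EcR, usp and tai and for all 4410 optimal peaks. At the summit the 11 peaks average 72.0% and all peaks 66.9%, but the curve of the 11 is uneven beside it, with 56.7% at 300 bp downstream and 67.4% at 395 bp, where all peaks have 54.9% and 55.6%.

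A word list was searched on both strands of the same windows, as a description of the letters present. The inverted-repeat ecdysone response element was searched as a strict consensus with no mismatch allowed, and it matched in none of the 4410 windows. Elements that depart from the consensus would be missed and a strict match is rare in such short windows, so no conclusion is drawn from this. AGGTCA, a form of its repeat, matched in none of the 11 and in 2.81% of all. GAGAG, the word read by GAGA factor, was present at EcR peaks 3 and 4 and tai peak 5, and in 9.37% of all windows. CGATA was present at EcR peak 2, usp peak 1 outside the printed stretch, and tai peak 3, and in 12.6% of all. The longer word TATCGATA, which contains CGATA, was present in none of the 11 and in 0.930% of all. TATAAA was present at usp peak 1 and tai peak 2 (21.7% of all), and CAGGTA at tai peak 4 (1.93% of all). Runs of AAAAAA were present at tai peaks 2, 4, 5 and 6, and in 28.5% of all windows. CACGTG and GGTCACAC were present in none of the 11, and in 0.680% and 0.612% of all. The absence of a word says only that these letters are not in the window.

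In order of mean level, tai peaks 2, 5 and 4 came first and were followed, 0.68 lower, by tai peak 1, usp peak 1 and EcR peak 2. EcR peak 4, EcR peak 3, tai peak 6, EcR peak 1 and tai peak 3 came after these. Of the 10 pairs of neighbours in this order, 2 did not overlap over the replicates: tai peak 4 and tai peak 1, and EcR peak 2 and EcR peak 4. The ranges of all other neighbours overlapped. These ranges ignore the pairing by replicate, and the order was made from the same values, so neither outcome is a test. The median mean level of the optimal peaks with a region in all 3 replicates, 4330 of 4410, was 0.17. EcR peak 2 thus lay at the middle of the list and tai peak 2 above 84.3% of it.

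**Figure D5:**
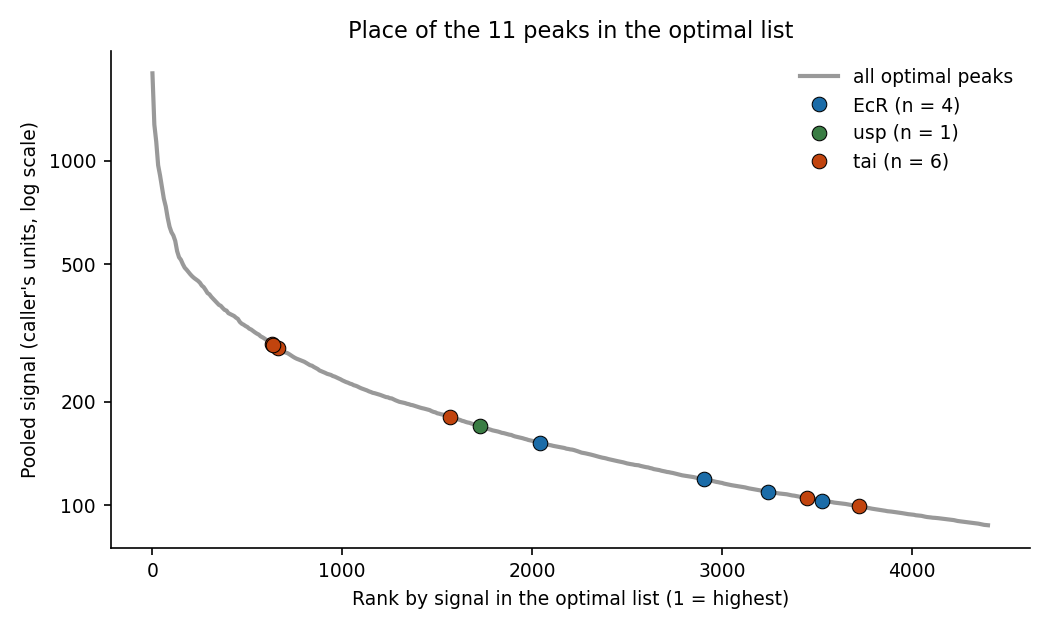
Pooled signal in the caller's units, on a log scale, against rank in the optimal list. The grey line is all 4410 peaks and the points are the peaks of EcR (4), usp (1) and tai (6), of which 3 of tai lie at ranks 628 to 661 and the last, tai peak 6, at 3721.

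The strongest peak of each gene was compared with those of the other 2 genes within each replicate. Each was the strongest by the pooled signal, which is made from the same replicates, out of 6 peaks at tai, 4 at EcR and 1 at usp. That choice favours a higher value at tai, so the differences are descriptions. The level of tai peak 2 exceeded that of EcR peak 2 by 0.96 ± 0.22 (SD, n = 3) on the log2 scale, in 3 of 3 replicates, with p = 0.25 by the exact two-sided sign-flip permutation test. The Benjamini-Hochberg adjusted value over the 3 pairs was 0.375 (exact permutation test). It exceeded that of usp peak 1 by 0.90 ± 0.38 (SD, n = 3), again in 3 of 3 replicates (exact p = 0.25, adjusted 0.375). Between usp peak 1 and EcR peak 2 the difference was 0.06 ± 0.44 (SD, n = 3), and usp was higher in 1 of 3 replicates (exact p = 1). With 3 replicates the smallest p this permutation test allows is 0.25, so none of the pairs could pass 0.05. Among the 5684 protein-coding genes with an optimal peak, 36.7% had a weaker strongest peak than EcR, 43.9% than usp and 74.1% than tai. Of these genes 3341 had only 1 peak, and neither the number of peaks nor gene length was allowed for, which favours EcR and tai.

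Most replicate summits lay close to the optimal summits, which come from the pooled list made from the same replicates. Of 33 distances between a replicate's summit and the optimal summit, 28 were within 50 bp, with a median of 11 bp and a largest value of 116 bp at EcR peak 4 in replicate 3. The shifts along transcription at that peak were -104, 0 and -116 bp in replicates 1, 2 and 3. Of the 11 peaks, 7 were among the 4410 strongest regions of all 3 replicates, 3 of 2 replicates and 1 of 1. Neither these counts nor the distances were computed over all 4410 optimal peaks. The weakest of the 11 was tai peak 6 at a signal of 99.4, above 15.6% of the optimal peaks, whose lowest signal was 87.3. Just under the threshold lay an EcR region 959 bp downstream of the EcR-RD start at 84.6, the upstream usp region at 84.4, and tai regions in the 42174 bp intron at 83.4 (summit 9232021) and 82.9 (summit 9207364). The pooled list held 39, 6 and 32 further regions below the threshold at EcR, usp and tai, of which 15, 2 and 14 overlapped a region in all 3 replicate lists. Some of them overlap an optimal peak, such as a usp region at 83.4 (summit 2041669) and an EcR region at 79.0 (summit 6147774). Their strongest overlapping replicate regions are those of usp peak 1 and EcR peak 3. The same share was not computed over all pooled regions below the threshold. The pooled and replicate lists contain background together with peaks.

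The genes most like each member were sought by the 3 replicate levels of the strongest region within 500 bp of any start site, over 3438 other protein-coding genes with such a region in every replicate. For EcR, whose strongest region was at the B promoter in replicate 1 and at the EcR-RD start in replicates 2 and 3, these were CG1662 and Ype, which share a region, at a distance of 0.13 in log2 units, and rho-7, a mitochondrial rhomboid protease gene, at 0.24. For usp they were CG4313, which shares its regions and so lay at 0, Fmo-2, a flavin monooxygenase gene, at 0.11, and blow, a myoblast fusion gene, at 0.19. For tai they were CG9586, also at 0 because it shares the peak, yellow-d at 0.11 and CG7536 at 0.13. The distances rest on 3 values each.

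Of 52 listed genes that make, carry, modify or answer the hormone signal, 15 had an optimal peak within 500 bp of a start site, beside the 14.0% of all protein-coding genes. A gene counted with a peak at any of its start sites, and their number, 7 at Eip75B for example, was not allowed for. None of the 8 genes of ecdysone synthesis had such a peak, and 3 of them had a peak in the body or within 5 kb, a share near the 40.8% of all protein-coding genes. Of 4 genes of transport and turnover 3 did: the ABC transporter gene E23 at a signal of 497, the transporter gene Atet at 119, and Oatp74D, the ecdysone importer, at 93.2. Of 14 chaperones and coregulators 4 did: Hsp83, the chaperone that readies steroid receptors, at 333, the scaffold gene Sin3A of a histone deacetylase complex at 218, TP53INP at 207 and nej, the fly CBP acetyltransferase gene, at 136. Of 5 other partners of usp and tai only yki, which encodes Yorkie, did, at 134. The Oatp74D peak was among the strongest regions of 1 replicate only, and those of Atet and nej of 2 replicates. The peaks of E23, Hsp83, Sin3A, TP53INP and yki were among the strongest regions of all 3.

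Of 21 target genes 7 had such a peak, and 19 had one in the body or within 5 kb, where 40.8% of protein-coding genes had one. Gene length was not allowed for, and some targets are long, such as Eip75B with 12 peaks and vri with 10. The highest signal was at Sox14, an HMG-box transcription factor gene, at 798, followed by the nuclear receptor gene Eip75B at 337 and the calcium-binding protein gene Eip63F-1 at 200.3. The bZIP factor gene vri had 154, the metamorphosis factor gene Eip93F 131, the ETS factor gene Eip74EF 104 and the imaginal disc gene ImpE3 104. The ImpE3 peak was among the strongest regions of 1 replicate only, and those of vri and Eip74EF of 2 replicates. The peaks of Sox14, Eip75B, Eip63F-1 and Eip93F were among the strongest regions of all 3. The promoter peaks of usp (169.8) and of the first tai start (181) were lower in pooled signal than those of Sox14, Eip75B and Eip63F-1 and higher than the other 4. Those of EcR (109) and of the internal tai start (105) were lower than those of vri and Eip93F as well.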

How the data were processed

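For dm6 the authors deposited 5 narrowPeak lists: 1 per replicate, 1 pooled and 1 optimal. Per the deposited text notes, replicate lists derive from single alignments against a control, the pooled list from all 3, and the optimal list from these by the irreproducible discovery rate (IDR). The sources used here do not give aligner, caller, versions or IDR threshold. The deposited signal and −log10 q-value are the caller's; the latter is at its ceiling of 3.95 in all 4410 optimal peaks, which are the strongest 4410 of the 30000 pooled regions, so signal was used for ranks. Lists for dm3 were not used here.

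A level is log2 of the signal of the strongest region overlapping a peak by 1 bp or more, over that replicate's median on optimal peaks (31.4, 61.5 and 37.6). Genes came from Ensembl release 115 (BDGP6.54) and sequence from RefSeq's genome of the same assembly. Analyses used Python 3.11.15, numpy 2.4.6, scipy 1.17.1 and matplotlib 3.10.9, tested on simulated data. Named genes are the members, genes whose start is nearest to an optimal summit in their windows, genes of the hormone lists with a promoter peak, and the 3 nearest per member in level. The members and lists were chosen with earlier results of these data known, so their counts are no independent support. In the lists, current symbols replaced CSN2 (alien), Eip55E (Cth), EcI (Oatp74D) and DOR (TP53INP).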

Additional observations from a re-analysis of the deposited data

How the results depend on the processing

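Alternatives were run for 12 values of EcR, usp and tai, 57 in all. Of these, 44 stayed within 1.5 times the count, within 1 SD of the level or on the same side of 0 for a difference, 11 moved further and 2 reversed. Part of this tally was fixed in advance. Leaving out 1 of 3 replicates cannot move a mean level by 1 SD. It also cannot reverse a difference that has the same sign in all 3 replicates, as both differences of tai have. The tally is therefore no measure of robustness. Peak counts: with the stronger 2205 optimal peaks EcR kept 1 peak and 0 start sites, and tai 1 start site. Requiring the 4410 strongest regions of every replicate left EcR with 2 peaks, also at an overlap of 50% of the shorter region. Within 200 bp EcR had 0 start sites with a peak. Within 1000 bp usp had 2, both reached by the same optimal peak. A flank of 10 kb gave usp 2 peaks, but the summit of the added peak lay 169 bp from the start of another gene. Levels of the strongest peaks relative to the whole list's median were 1.86 at EcR, 1.92 at usp and 2.82 at tai, a shift set by the lower reference. The difference of usp minus EcR was -0.0244 in percent of rank and -0.18 without replicate 2, in the opposite direction; the cause was not tested. Leaving out 1 replicate in turn gave 0.15 to 0.20 for EcR, -0.01 (without replicate 2) to 0.43 (without replicate 1) for usp, and 1.05 to 1.23 for tai. The differences ran from 0.87 to 1.08 for tai minus EcR, 0.69 to 1.06 for tai minus usp and -0.18 to 0.23 for usp minus EcR. With 1 group of samples, no comparison between groups could be paired by replicate. Lists without read counts set no depth limit, the sign-flip test on 3 replicates allows no p under 0.25, and regions shared with Actn, CG4313 and CG9586 cannot be assigned to 1 gene.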
